A study of Mus musculus with 19 samples.

Results

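Chemokines are small secreted or membrane-bound proteins that direct leukocytes into tissues, and chemokine receptors are the G protein-coupled receptors on the responding cells. The genes described here are the protein-coding genes whose symbols mark them as CC, CXC, CX3C or XC chemokines or as receptors of these ligands, including the atypical receptors. Of the 54532 genes of the count table, 67 rows with 61 distinct symbols met this rule. They were 30 rows of CC ligands, 12 of CXC ligands, 2 of the CX3C and XC ligands Cx3cl1 and Xcl1, 10 of CC receptors, 8 of CXC, CX3C and XC receptors, and 5 of atypical receptors with Ccrl2.

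CC ligands such as Ccl2, Ccl7 and Ccl12 attract monocytes through Ccr2, while CXC ligands with an ELR motif, such as Cxcl1, Cxcl2 and Cxcl5, attract neutrophils through Cxcr2. Cxcl9 and Cxcl10 attract activated T cells and NK cells through Cxcr3, Cxcl13 attracts B cells through Cxcr5, and Cxcl12 retains or guides many cell types through Cxcr4. Atypical receptors bind chemokines without G protein signalling and remove them from the tissue. In the obstructed kidney, injured tubular cells, stromal cells and leukocytes make chemokines, and Ccr2-positive monocytes and Cx3cr1-positive macrophages are among the best-known cells that respond.

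Whole kidneys with a ligated left ureter (UUO) were taken on day 12 from 19 male mice of 8 to 9 weeks on the C57BL/6J background, after perfusion with heparin, and profiled by bulk RNA-seq. WT mice were used beside CD5L KO mice, which are without CD5L, a protein secreted by macrophages, and all received daily intraperitoneal injections of PBS or of rCD5L, the recombinant mouse protein made in CHO-S cells, at 0.5 mg per mouse. The groups were WT + PBS (5 kidneys), CD5L KO + PBS (4), WT + rCD5L (5) and CD5L KO + rCD5L (5). Every kidney was obstructed, so no value describes a healthy kidney, and each value is a mean over all cells of the organ, in which fewer cells of a type and less RNA per cell cannot be told apart.

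The total count per kidney lay between 17917491 and 23847090. Cd5l itself had 3 to 15 counts in the WT kidneys and 0 in all kidneys of CD5L KO mice, where up to 3 counts each would be allowed. The 67 rows together made up 0.0815% to 0.201% of a kidney's counts. The kidney with the lowest share was CD5L KO + rCD5L replicate 4, and the share in the other 18 kidneys was at least 0.153%. This kidney had the lowest value of all 19 for 27 of the 43 genes with a mean of at least 1 CPM (counts scaled to a common library size), and the highest for 5. Its summed markers of macrophages and monocytes (11 genes) were 841 CPM against 2017 to 3249 CPM in the other kidneys, and its 7 tubule and podocyte markers summed to 13760 CPM against 2655 to 5290 CPM. Every marker of both lists was detected in each group. CD5L KO + rCD5L replicate 3 also stood apart, with a chi-square per degree of freedom over gene counts of 86.1 to 103.7 against replicates 1, 2 and 5, which had 10.03 to 16.9 among themselves. Its TMM factor (a scaling for library composition) was 0.874, that of replicate 4 was 0.682 and the others were at least 0.968. Ptprc, a gene of all leukocytes, was lowest in these kidneys (41.5 CPM in replicate 4 and 50.7 CPM in replicate 3). Values without replicate 4 stand beside the fold changes of members named for this group. For Cx3cl1 and Ccr2, values without replicate 3 stand beside the comparisons of 2 groups.

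**Figure D1:**
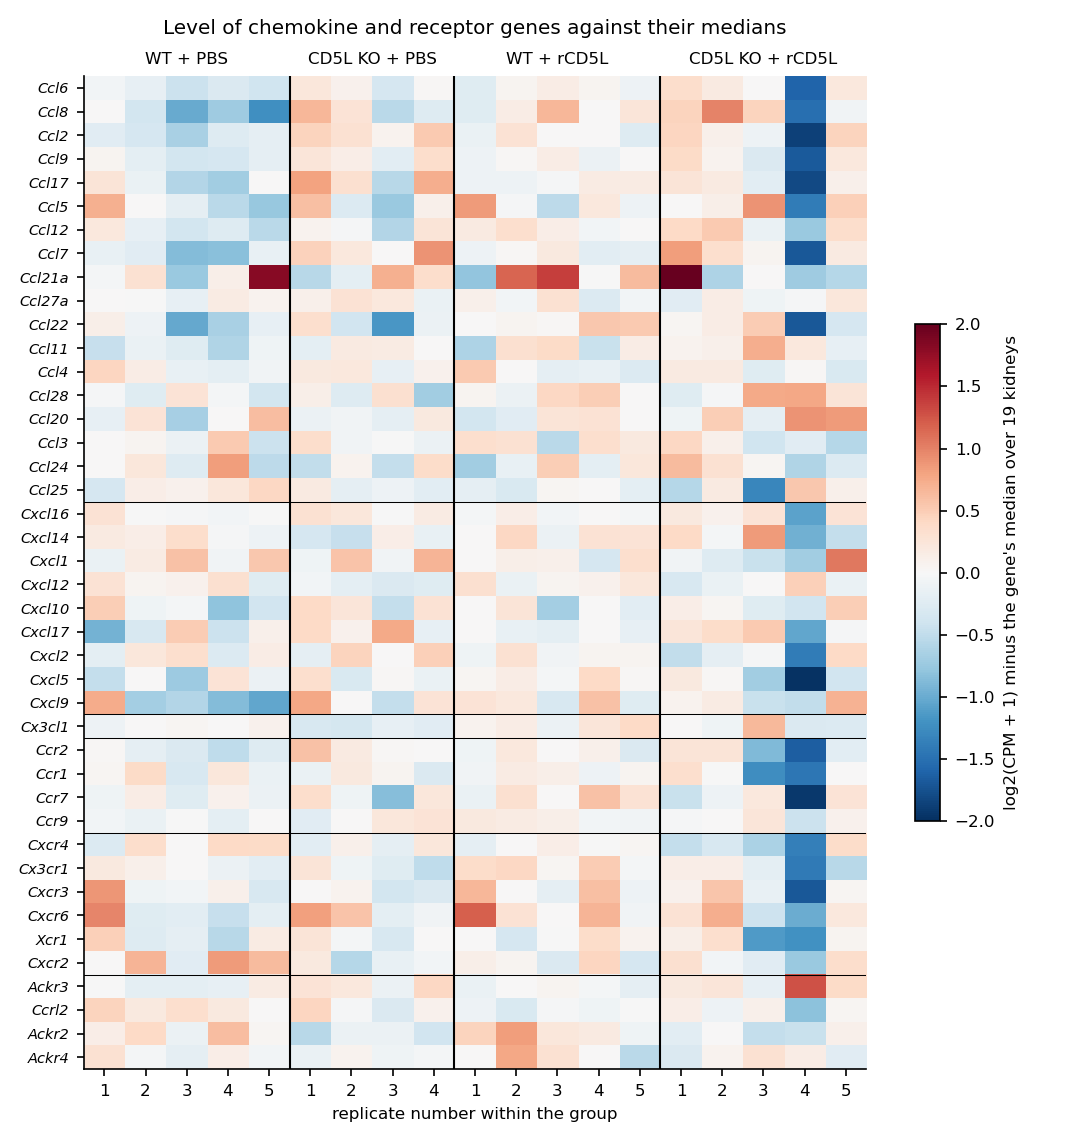
Level of chemokine and receptor genes with a mean of at least 1 CPM (rows, ordered by class and level) in each of the 19 kidneys (columns, by group and replicate number). Colours give log2(CPM + 1) minus the median of the gene over all kidneys. Replicate 4 of the CD5L KO + rCD5L group had the lowest value of all kidneys for most of the genes shown.

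Levels between genes were compared as FPKM, which the authors divided by gene length. Cx3cl1 (fractalkine, made by epithelium and endothelium) was the most abundant, with a mean of 69.6 FPKM over the 19 kidneys, followed by Cxcl16 (62.1), the epithelial chemokine Cxcl14 (56.5) and the myeloid CC ligand Ccl6 (44.4). Above 10 FPKM lay 17 of the 67 rows, and 37 lay above 1 FPKM. Among the CC ligands, Ccl8 (27.8 FPKM), Ccl2 (26.9) and Ccl9 (20.7) came after Ccl6. Cxcl1 (23.5), Cxcl12 (16.9) and Cxcl10 (14.1) followed among the CXC ligands.

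Among the receptors, Ackr3, an atypical receptor that takes up Cxcl12, was the highest (21.1 FPKM). Ccr2 followed with 16.9 FPKM, Cxcr4 with 12.3 and Cx3cr1 with 10.9. Lower levels were found for the CC receptors Ccr1 (3.73) and Ccr7 (3.46), and for Cxcr3 (3.09) and Cxcr6 (2.77) among the others. The scavenging receptors Ackr2 (0.489 FPKM), Ackr1 (0.239) and Ackr4 (0.186) lay well below Ackr3 and Ccrl2 (2.76). The levels of Ackr4 and Ackr1 are uncertain, since their spans overlap Acad11 (median of 1442 counts, against 23 for Ackr4) and Cadm3 (39, against 9 for Ackr1).

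Ligands and their receptors were not equally represented. For the Ccr2 axis, Ccl2, Ccl7 (8.63 FPKM), Ccl12 (10.2) and Ccr2 itself were all above 8 FPKM. The neutrophil ligands Cxcl1, Cxcl2 (6.92 FPKM) and Cxcl5 (5.39) stood beside a receptor, Cxcr2, of 0.330 FPKM. Ccl3 (1.497) and Ccl5 (15.3) bind Ccr1, Ccl4 had 1.62 FPKM, and Cxcl9 (4.999) and Cxcl10 share Cxcr3. Low values were seen for the B cell pair Cxcl13 (0.652) and Cxcr5 (0.201), for Ccl20 (1.59) with Ccr6 (0.173), for Ccl28 (1.60) with Ccr10 (0.197, uncertain as its span overlaps Cntnap1), and for Xcl1 (1.37) with Xcr1 (0.956), the receptor of cross-presenting dendritic cells.

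At the low end, 5 rows had 0 counts in all kidneys, which allows up to 3 counts in each. These were Ccl26, both rows of Ccl21b, and copies of Ccl19 and Ccl27a on unplaced scaffolds. In 11 rows some kidneys had a count, and in 51 rows every kidney did. The genes of the lymphoid ligands Ccl19 and Ccl21a, which bind Ccr7, are present in near-identical copies. Ccl19 on chromosome 4 reached at most 29 counts and Ccl21a on chromosome 4 at most 2, while a Ccl21a copy on an unplaced scaffold had 6 to 235 counts (5.05 FPKM). How reads that match several copies were counted is not given in the sources used here, so these values are uncertain. Of the 67 rows, 54 passed the filter on low counts in at least 1 comparison and 50 in all 5. The 13 that passed in none were Cxcl15, Cxcr1, Ccl26, Ccl27b, both rows of Ccl19, Ccl21b and Ccl21c, the scaffold copies of Ccl27a, and Ccl21a on chromosome 4.

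**Figure D2:**
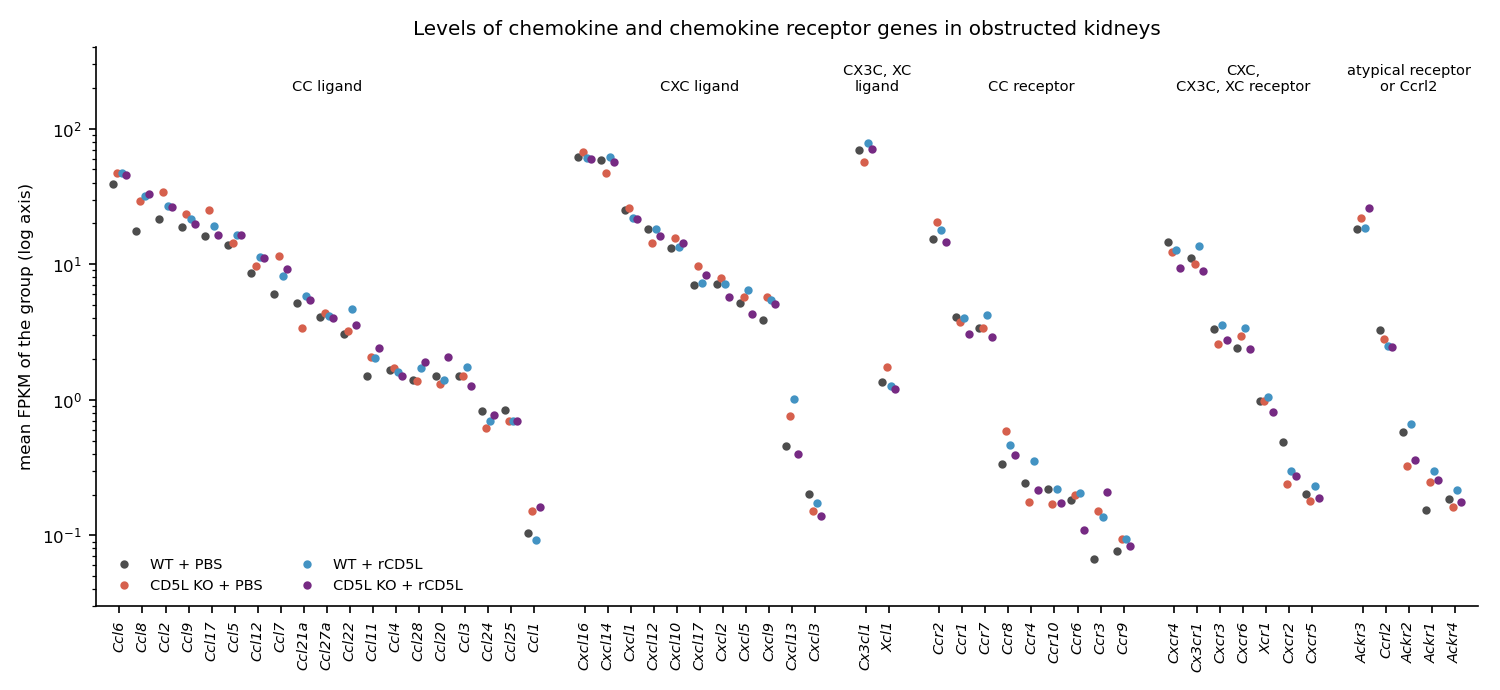
Mean FPKM of each group (log axis) for chemokine and receptor rows tested in at least 1 comparison, ordered by class and by mean level. Ccl21a is the copy on an unplaced scaffold. Cx3cl1, Cxcl16 and Cxcl14 are the highest, and Cxcr2 and the receptors Ccr3, Ccr6, Ccr9 and Ccr10 lie below 0.5 FPKM in every group.

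The first comparison asked what the loss of CD5L changed in the obstructed kidney. Among the 51 chemokine and receptor genes tested with PBS in both genotypes, 4 passed an adjusted p-value of 0.05 (edgeR's quasi-likelihood test, Benjamini-Hochberg over all genes tested). The monocyte ligands Ccl2 and Ccl7 and their receptor Ccr2 were higher in CD5L KO kidneys, and Cx3cl1 was lower. The share called, 7.84%, lay below that over all 17579 genes tested (10.5%). An unadjusted p-value under 0.05 was found for 14 of the 51 genes (27.5%, against 26.6% of all genes). Which share of calls was the larger depended on the setting. A replicate block called 10 of 51 members and 2132 of 17579 genes. Leaving out CD5L KO + PBS replicate 3 called 9 of 51 members and 1316 of 17882 genes. Without CD5L KO + PBS replicate 1, 2 of 52 members and 1038 of 17799 genes were called.

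Ccl2 (ENSMUSG00000035385, chromosome 11 of GRCm38, 82035571 to 82037453), the main monocyte attractant, had 50.9, 46.3, 39.3 and 53.8 CPM in the CD5L KO kidneys. The WT kidneys had 31.8, 29.4, 23.5, 31.0 and 32.8 CPM, and all of them lay below every CD5L KO kidney. The means were 47.6 ± 6.31 (SD, n = 4) and 29.7 ± 3.69 (SD, n = 5), a log2 fold change of 0.67 (standard error, SE, 0.108, edgeR adjusted p = 0.00566).

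Ccl7 (ENSMUSG00000035373, chromosome 11, 82045712 to 82047525), the neighbouring gene, encodes another Ccr2 ligand. It had 11.7, 9.61, 8.20 and 16.1 CPM in CD5L KO kidneys and 7.26, 6.87, 4.02, 4.14 and 7.28 CPM in WT kidneys, again without overlap. Its log2 fold change was 0.93 (SE 0.233, edgeR adjusted p = 0.0255).

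For Ccr2 (ENSMUSG00000049103, chromosome 9, 124101950 to 124113557), the CD5L KO kidneys had 221.9, 166.6, 149.5 and 147.1 CPM and the WT kidneys 149.6, 129.3, 120.5, 103.1 and 123.3 CPM. The 2 highest CD5L KO kidneys exceeded the whole WT group, so the groups overlapped. The log2 fold change was 0.45 (SE 0.127, edgeR adjusted p = 0.0433).

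Cx3cl1 (ENSMUSG00000031778, chromosome 8, 94772009 to 94782427) had 265.5, 260.1, 296.4 and 284.8 CPM in CD5L KO kidneys. Each of the WT kidneys was higher, with 309.6, 333.2, 341.4, 333.3 and 351.8 CPM. The log2 fold change was -0.28 (SE 0.0585, edgeR adjusted p = 0.0128). Its receptor Cx3cr1, on macrophages, had 55.8 ± 12.7 CPM (SD, n = 4) in CD5L KO and 60.5 ± 6.96 (SD, n = 5) in WT kidneys, and its difference did not pass the test (log2 fold change -0.12, adjusted p = 0.600, edgeR). The annotated span of Cx3cr1 overlaps other expressed genes, among them Wdr48 and Gorasp1, and the same holds for Cxcl16 (Zmynd15), Cxcl10 (Art3), Cxcr6 (Fyco1), Ccr9, Cxcr5, Ccl25, Ccl27a, Ackr4, Ccr10 and Ackr1. Ccl6, Xcl1 and Cxcl17 overlap noncoding transcripts with medians of 39, 23 and 18 counts, against 2147, 18 and 162 for the genes themselves. Whether strand was used in counting is not given in the sources used here, so the counts of these genes are uncertain.

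**Figure D3:**
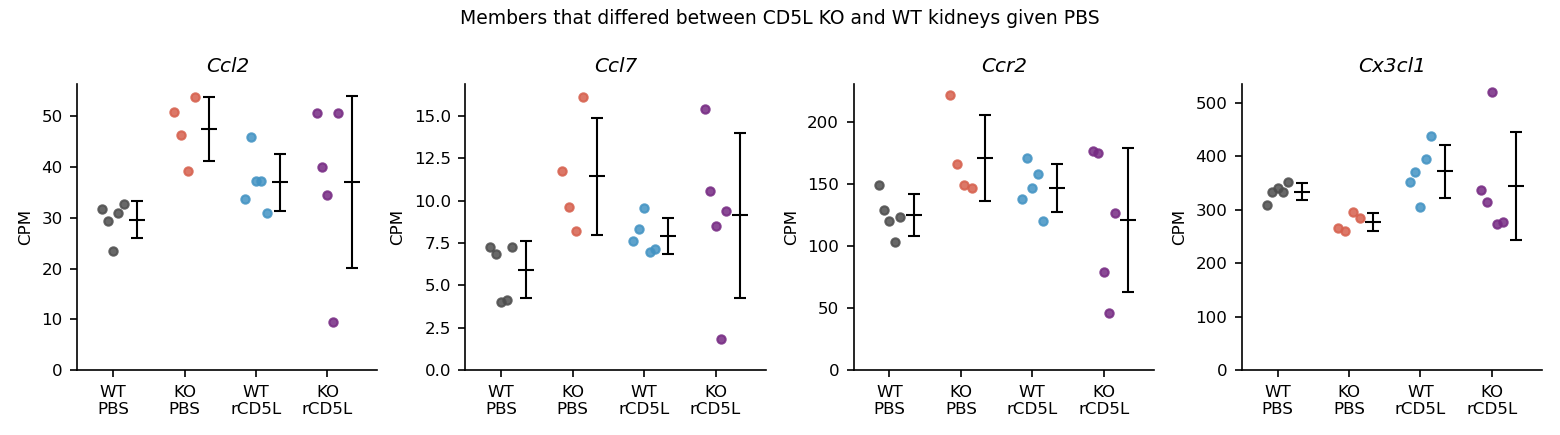
CPM of Ccl2, Ccl7, Ccr2 and Cx3cl1, which passed the test for the loss of CD5L with PBS, in every kidney of the 4 groups (points), with the mean and SD of each group (bars beside the points). The CD5L KO + PBS kidneys lie above all WT + PBS kidneys for Ccl2 and Ccl7 and below all of them for Cx3cl1, and overlap them for Ccr2.

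Non-overlapping groups were found for these 3 genes, Ccl2, Ccl7 and Cx3cl1, among the 51 tested (5.88%), against 14.1% of all genes. Ccl2 and Cx3cl1 passed when any single kidney was left out (adjusted p of 0.00456 to 0.019 and of 0.0139 to 0.0428, edgeR). Ccl7 did not pass without CD5L KO + PBS replicate 1 or 4 or without WT + PBS replicate 4, and Ccr2 passed in 3 of 9 such fits (adjusted p of 0.0266 to 0.106, edgeR). With all 19 kidneys sharing 1 estimate of the spread, 0 of the 4 genes passed, and 5 of 54 members had an unadjusted p-value under 0.05, as did 2115 of all 18454 genes. Of the 10 other settings, that fit among them, Ccl2 and Cx3cl1 passed in 9 each and Ccl7 in 7. Ccr2 passed in 6, and in none of those that used FPKM.

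Among the 18 CC ligands tested in this comparison, the mean of 13 was higher without CD5L, 2 of which passed, and the class had a median log2 fold change of 0.09. Ccl8, a CC ligand of the same gene cluster as Ccl2, had 27.4, 20.6, 11.4 and 14.0 CPM in CD5L KO kidneys against 17.0, 12.9, 7.95, 9.99 and 6.64 CPM in WT kidneys. These values overlapped, and its log2 fold change of 0.74 did not pass (SE 0.287, edgeR adjusted p = 0.119). The myeloid ligands Ccl9 (0.33) and Ccl6 (0.27), the T cell attractant Ccl17 (0.64) and the eosinophil attractant Ccl11 (0.46) also had an unadjusted p-value under 0.05, with adjusted values of 0.0819 to 0.186 (edgeR).

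Of the CXC ligands, 8 of 11 were higher in the mean and none passed the threshold. Cxcl12 (ENSMUSG00000061353, chromosome 6, 117168535 to 117181367), the stromal ligand of Cxcr4, had 159, 144, 136 and 140 CPM in CD5L KO kidneys and 203, 173, 176, 208 and 140 CPM in WT kidneys. Only the lowest WT kidney lay within the range of the CD5L KO kidneys. Its log2 fold change was -0.32 (SE 0.101, edgeR adjusted p = 0.0642), and it passed under 3 of 10 other settings (adjusted p of 0.00603 to 0.408). Cxcl14 had a log2 fold change of -0.32 as well (adjusted p = 0.110). The interferon-induced ligands Cxcl9 and Cxcl10 and the neutrophil ligands Cxcl1, Cxcl2 and Cxcl5 had unadjusted p-values above 0.05.

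For the receptors, 7 of 9 CC receptors were higher in the mean in CD5L KO kidneys and 1 passed, Ccr2. Of the 7 CXC, CX3C and XC receptors, 2 were higher in the mean. Cxcr2, the neutrophil receptor, had 0.897 ± 0.398 CPM (SD, n = 4) against 1.81 ± 0.855 (SD, n = 5), from few counts (log2 fold change -1.02, adjusted p = 0.147, edgeR). Among the atypical receptors, Ackr2, which removes inflammatory CC chemokines, had 0.857, 1.52, 1.52 and 1.09 CPM in CD5L KO kidneys and 1.99, 2.58, 1.51, 3.17 and 1.80 CPM in WT kidneys (log2 fold change -0.83, adjusted p = 0.0741). Ackr3 had a log2 fold change of 0.28 (adjusted p = 0.114). Neither passed.

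Values of other cells stood beside these differences. The 11 macrophage and monocyte markers summed to between 2017 and 3249 CPM in CD5L KO and between 2225 and 2904 CPM in WT kidneys given PBS, with 3 of 11 higher in the mean. Of these markers, Ly6c2, a gene of inflammatory monocytes, was higher in CD5L KO kidneys (7.49 against 5.02 CPM, log2 fold change 0.57, adjusted p = 0.0402, edgeR). Csf1r, the receptor of the macrophage growth factor, was lower (218 against 301 CPM, log2 fold change -0.47, adjusted p = 0.0386). Ptprc, expressed by all leukocytes, did not pass (log2 fold change -0.01, adjusted p = 0.960). Pecam1 and Cdh5, 2 of the 4 markers of blood endothelium, which makes Cx3cl1 and Cxcl12, were lower (-0.38 and -0.43), as were 4 of 6 fibroblast and myofibroblast markers, led by Pdgfra (-0.50, adjusted p = 0.00470). The part of cell numbers in the chemokine differences was not tested.

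Longer genes had lower fold changes here (Spearman's rho -0.277 across all genes tested, whose values depend on each other), and the members are short (median gene length 2252 bases against 3808 for all genes tested). With an offset for gene length, Ccl2, Ccr2 and Cx3cl1 passed and Ccl7 did not. The log2 fold change of Ccl7 lay between 0.77 and 1.01 over the 10 other settings, this offset among them. With the offset, the median log2 fold change of the 51 members was 0.02 instead of 0.07. Leaving out 1 kidney gave medians from 0.00 (without CD5L KO + PBS replicate 1) to 0.18 (without CD5L KO + PBS replicate 3). Trends on gene length were also found for rCD5L against PBS in WT mice (rho 0.24) and between the genotypes given rCD5L (-0.276). In CD5L KO mice, rho for rCD5L against PBS was 0.0138. With the offset, the members' median was 0.19 instead of 0.17 for rCD5L in WT mice. Between the genotypes given rCD5L it was -0.19 instead of -0.13.

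Many of these genes lie in tandem arrays. On chromosome 11, Ccl2, Ccl7, Ccl11, Ccl12, Ccl8 and Ccl1 occupy 270 kb from 82035571 to 82305690. All 5 genes of this array that were tested were higher in the mean in CD5L KO kidneys, from 0.18 for Ccl12 to 0.93 for Ccl7, with a median of 0.67. Another array on chromosome 11 (83525778 to 83664683) holds Ccl5, Ccl9, Ccl6, Ccl3 and Ccl4. All 5 were higher in the mean there too, with smaller values of 0.02 to 0.33 and none past the threshold. Of the receptor genes near Ccr2 on chromosome 9, Ccr3 had a log2 fold change of 1.19, Ccr9 of 0.31, Cxcr6 of 0.30, Xcr1 of 0.01 and Ccr1 of -0.11, and none of these passed. Over all 17579 genes, 49.3% were higher in the mean.

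The sequences before the start sites of Cx3cl1 and Ccr2 are shown because these are the called members with an entry in the promoter table used here (RefSeq, GRCm38.p6, 46 of the 61 symbols matched). Each line gives the 250 bases before the start site on the plus strand, Cx3cl1 from chr8:94771930-94772179 and Ccr2 from chr9:124101933-124102182, and capitals mark a match to 1 of the motifs searched on both strands. These start sites lie inside the gene spans given above, so most of each window lies within the span of its gene.
Cx3cl1: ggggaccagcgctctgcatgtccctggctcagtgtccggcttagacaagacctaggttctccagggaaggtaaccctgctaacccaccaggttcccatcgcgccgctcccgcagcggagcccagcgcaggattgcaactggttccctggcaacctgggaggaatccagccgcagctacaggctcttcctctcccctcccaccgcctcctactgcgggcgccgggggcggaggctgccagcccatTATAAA
Ccr2: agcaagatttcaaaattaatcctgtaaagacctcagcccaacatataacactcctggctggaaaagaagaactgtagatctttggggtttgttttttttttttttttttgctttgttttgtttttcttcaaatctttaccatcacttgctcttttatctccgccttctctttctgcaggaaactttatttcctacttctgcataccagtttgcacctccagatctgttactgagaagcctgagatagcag
The Cx3cl1 window is rich in G and C (64.8%) and ends in TATAAA, the only match. The Ccr2 window has a G and C content of 37.2% and no match. Over the 55 windows of members in the table, the NF-kB motif was found in 12 (21.8%, against 7.25% of all 32817 windows), among them Cxcl1, Cxcl2, Cxcl3, Cxcl10 and Ccl20. TATAAA was found in 14 (25.5% against 12.4%), TGANTCA of AP-1 in 6 (10.9% against 6.75%), TTCNNNGAA, the GAS motif, in 3 (5.45% against 7.01%), and the ISRE in 3 (5.45% against 2.97%). A match is a description of the letters only.

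The second comparison asked what rCD5L changed in mice that make their own CD5L. In WT mice, where rCD5L was set against PBS, 0 of 52 members had an adjusted p-value under 0.05, as did 0.0% of all 17455 genes tested. DESeq2 called 1 of 62 members, Ccrl2 (lower, adjusted p = 0.0492), with 508 of 31830 genes in all, and limma on FPKM called 0. An unadjusted p-value under 0.05 in edgeR was found for 12 members (23.1%, against 16.0% of all genes). Of the 52 members, 39 were higher in the mean with rCD5L (median log2 fold change 0.17, against 0.00 over all genes, 51.3% of which were higher). Leaving out 1 kidney gave 9 to 18 members with an unadjusted p-value under 0.05. The 9 were found without WT + PBS replicate 4 or 5 or WT + rCD5L replicate 2 (2764 to 3018 of all genes). Medians then ran from 0.14 (without WT + PBS replicate 3) to 0.27 (without WT + PBS replicate 1). With all 19 kidneys in 1 fit, 3 of 54 members had such a p-value, against 569 of all 18454 genes.

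Ccl8 (ENSMUSG00000009185, chromosome 11, 82115185 to 82116799) had 14.1, 18.95, 27.6, 17.0 and 20.2 CPM with rCD5L and 17.0, 12.9, 7.95, 9.99 and 6.64 CPM with PBS. The 3 highest kidneys of the rCD5L group exceeded the whole PBS group. The log2 fold change was 0.85 (SE 0.228, unadjusted p = 0.00221, adjusted p = 0.121, edgeR). Without the filter on low counts the adjusted p-value was 0.0432, and over the 10 other settings it ranged up to 1.0.

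Ccl2 had 33.7, 45.9, 37.3, 37.2 and 30.9 CPM with rCD5L in WT mice, and 4 of these 5 kidneys lay above all given PBS (log2 fold change 0.32, SE 0.105, adjusted p = 0.159, edgeR). For Ccl6 (ENSMUSG00000018927, chromosome 11, 83587882 to 83593087), the values were 86.3, 107, 114, 106 and 95.6 CPM with rCD5L and 99.04, 91.5, 75.4, 84.0 and 77.0 CPM with PBS, with overlap (log2 fold change 0.26, adjusted p = 0.161). The other CC ligands with an unadjusted p-value under 0.05 were Ccl22 (0.61), Ccl7 (0.43), Ccl12 (0.38) and Ccl9 (0.20), with adjusted values of 0.177 to 0.263, so none passed.

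Cxcl13 (ENSMUSG00000023078, chromosome 5, 95956951 to 95961068), the B cell attractant, was low in every kidney. It had 0.510, 1.204, 2.36, 1.34 and 1.63 CPM with rCD5L and 0.664, 0.999, 0.615, 0.537 and 0.369 CPM with PBS. The 4 highest kidneys of the rCD5L group exceeded the whole PBS group, but the difference did not pass (log2 fold change 1.14, SE 0.376, adjusted p = 0.163, edgeR).

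Ccrl2 (ENSMUSG00000043953, chromosome 9, 111054486 to 111057519), which binds chemerin without signalling, was the 1 member of 52 whose groups did not overlap (1.92%, against 3.6% of all genes). Its values were 7.90, 6.70, 8.34, 7.93 and 8.50 CPM with rCD5L and 12.0, 9.95, 11.0, 9.88 and 8.53 CPM with PBS. The log2 fold change was -0.37 (SE 0.112, edgeR adjusted p = 0.140). Receptors with higher means and an unadjusted p-value under 0.05 were Cx3cr1 (0.29), Ccr7 (0.31) and Ccr2 (0.24), with adjusted values of 0.203 to 0.310.

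Beside these values, the 11 T and NK cell markers summed to between 53.5 and 98.7 CPM with rCD5L and between 40.4 and 87.5 CPM with PBS, and 10 of 11 were higher in the mean. The macrophage and monocyte markers summed to between 2527 and 2971 CPM and between 2225 and 2904 CPM, with 9 of 11 higher in the mean. No marker of either list passed the test (smallest adjusted p = 0.113 in both lists). The part of cell numbers was not tested.

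**Figure D4:**
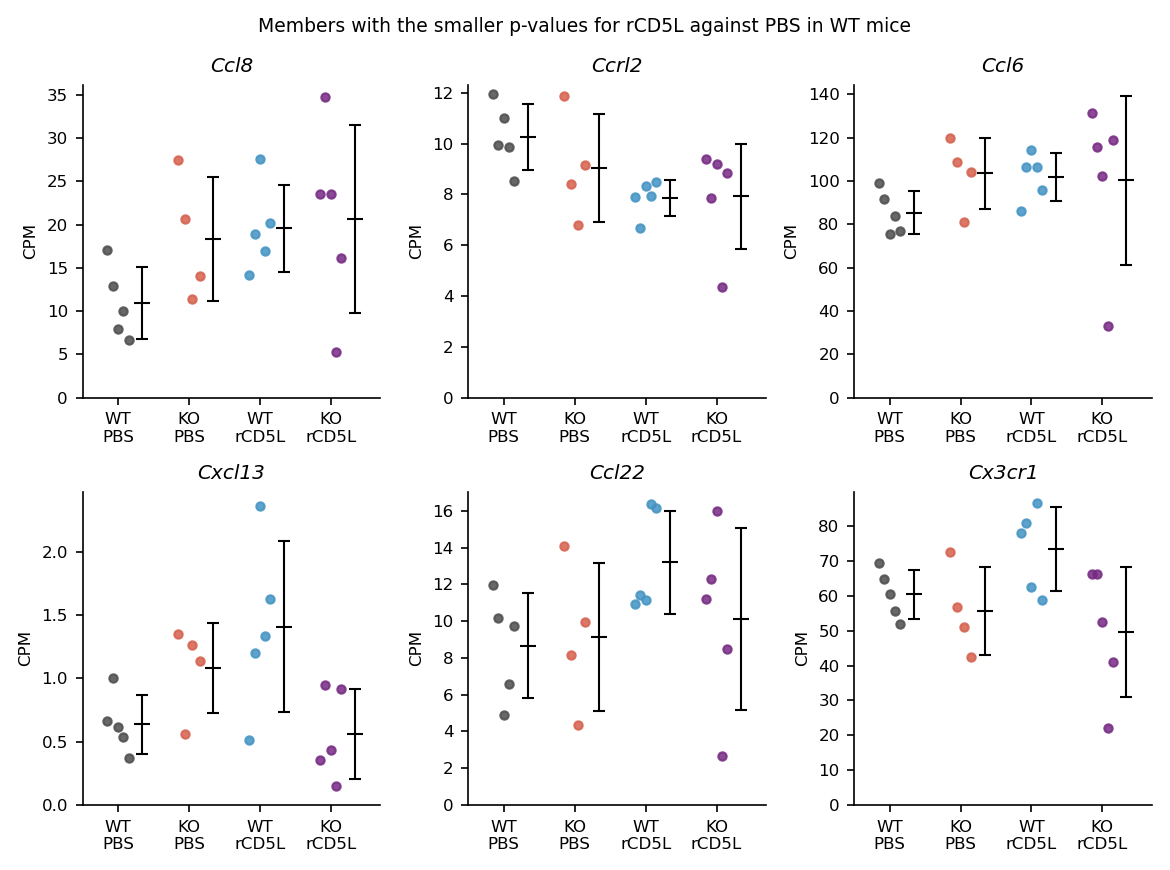
CPM of 6 chemokine and receptor genes in every kidney of the 4 groups (points), with the mean and SD of each group (bars beside the points). They are the genes with the smallest p-values for rCD5L against PBS in WT mice after leaving out Ccl2, and none had an adjusted p-value under 0.05. The 5 WT + rCD5L kidneys lie below all WT + PBS kidneys for Ccrl2, and replicate 4 of CD5L KO + rCD5L is the lowest of all 19 kidneys for each of the 6 genes.

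WT kidneys given PBS served as the controls of both comparisons above, so a low value in them would raise both differences, and the values are set side by side only. For the genes of the first array of chromosome 11, the log2 fold changes were 0.67 for the loss of CD5L and 0.32 for rCD5L in WT mice for Ccl2, 0.93 and 0.43 for Ccl7, 0.46 and 0.44 for Ccl11, 0.18 and 0.38 for Ccl12, and 0.74 and 0.85 for Ccl8. Cx3cl1 had -0.28 and 0.16, and Cxcl12 had -0.32 and 0.01.

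WT + PBS replicate 1 had the highest value of its group for 9 of 11 members linked to T cells, NK cells and dendritic cells, listed after values were seen, while Ccr7 was highest in replicate 2 and Ccl3 in replicate 4. By ratio to the next kidney, the widest gaps among these 9 were those of Cxcl9 (30.8 CPM, next 11.6), Cxcr3 (12.2, next 6.66), Cxcr6 (11.4, next 4.52), Xcl1 (2.21, next 0.645), Ccl5 (28.3, next 17.0) and Ccr4 (2.21, next 0.916). The T and NK cell markers of this kidney summed to 87.5 CPM, against 40.4 to 45.6 CPM in the other WT kidneys given PBS. Without it, the comparison of the genotypes given PBS called 7 of 51 members, adding Ccl8, Ccl9 and Cxcl9, all higher, and 1731 of all 17407 genes, with a median over members of 0.17 instead of 0.07. In WT mice, Cxcl9 was then the 1 of 52 members called for rCD5L against PBS, with 39 of all 17607 genes. An unadjusted p-value under 0.05 was then found for 18 instead of 12 members (2685 of all genes), and the median over the 52 members was 0.27 instead of 0.17. Cxcl9 was named after its values were seen.

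The third comparison asked what replacing CD5L changed in mice that lack it. In CD5L KO mice, where rCD5L was set against PBS, 0 of 52 members had an adjusted p-value under 0.05 (edgeR, smallest 0.897), as did 0.0% of 17467 genes. None had an unadjusted p-value under 0.05, against 2.87% of all genes, and for none did the groups separate, against 2.35%. DESeq2 and limma on FPKM also called 0 members, and DESeq2 called 3 of 31176 genes in all. The biological coefficient of variation was 28.8% here and 12.6% in the comparison of the genotypes given PBS.

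Of the 52 members, 21 were higher in the mean with rCD5L (median log2 fold change -0.14, against 0.02 over all genes). Leaving out 1 kidney gave medians from -0.19 (without CD5L KO + PBS replicate 3) to -0.01 (without CD5L KO + rCD5L replicate 4, 25 higher), with -0.02 without CD5L KO + PBS replicate 1, -0.07 without CD5L KO + PBS replicate 4 and -0.08 without CD5L KO + rCD5L replicate 3. An unadjusted p-value under 0.05 was then found for 0 to 3 members, the 3 without CD5L KO + rCD5L replicate 5 (766 of 17329 genes in all). Ccl2 had 50.7, 40.1, 34.6, 9.504 and 50.8 CPM with rCD5L, the 9.504 CPM in replicate 4, against 39.3 to 53.8 CPM with PBS (log2 fold change -0.36, adjusted p = 0.901, edgeR). Ccr2 had 177, 176, 79.1, 46.1 and 127 CPM, of which 3 kidneys lay below all given PBS (-0.51, adjusted p = 0.897). Cx3cl1 had 336, 314, 520, 274 and 277 CPM, the 520 CPM in replicate 3 (0.30, adjusted p = 0.897). With 1 kidney left out, the log2 fold change ranged from -0.51 to -0.11 for Ccl2, from -0.69 to -0.30 for Ccr2 and from 0.11 to 0.38 for Cx3cl1. Without replicate 3, Cx3cl1 had 0.11 and Ccr2 -0.38.

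The smallest p-values in CD5L KO mice belonged to Ccl20 and Cxcl13. Ccl20 (ENSMUSG00000026166, chromosome 1, 83116766 to 83119167), the epithelial ligand of Ccr6, had 2.19, 3.78, 1.97, 5.29 and 5.12 CPM with rCD5L and 2.12, 2.21, 1.97 and 2.895 CPM with PBS (log2 fold change 0.66, unadjusted p = 0.0761, adjusted p = 0.897, edgeR). Cxcl13 had 0.358, 0.945, 0.433, 0.153 and 0.919 CPM against 1.35, 0.563, 1.27 and 1.14 CPM (-0.89, unadjusted p = 0.0906). Ccl28, an epithelial ligand of mucosal tissue, had a log2 fold change of 0.47 and Cxcl2 of -0.47 (both adjusted p = 0.897). With 1 kidney left out, Ccl28 ranged from 0.29 (without CD5L KO + PBS replicate 4) to 0.66 and Cxcl2 from -0.70 to -0.26. All of these ranges overlapped. Without CD5L KO + rCD5L replicate 4, the smallest unadjusted p-values were those of Cx3cl1 (log2 fold change 0.38, unadjusted p = 0.051, adjusted p = 0.763, edgeR) and Cxcl14 (0.46, unadjusted p = 0.0903). Cxcl13 then had a log2 fold change of -0.69, Ccl20 of 0.51, Ccl28 of 0.34, Cxcl2 of -0.26, Ccr2 of -0.30 and Ccl2 of -0.11. In this fit 0 of 52 members had an unadjusted p-value under 0.05, against 5.54% of all genes.

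**Figure D5:**
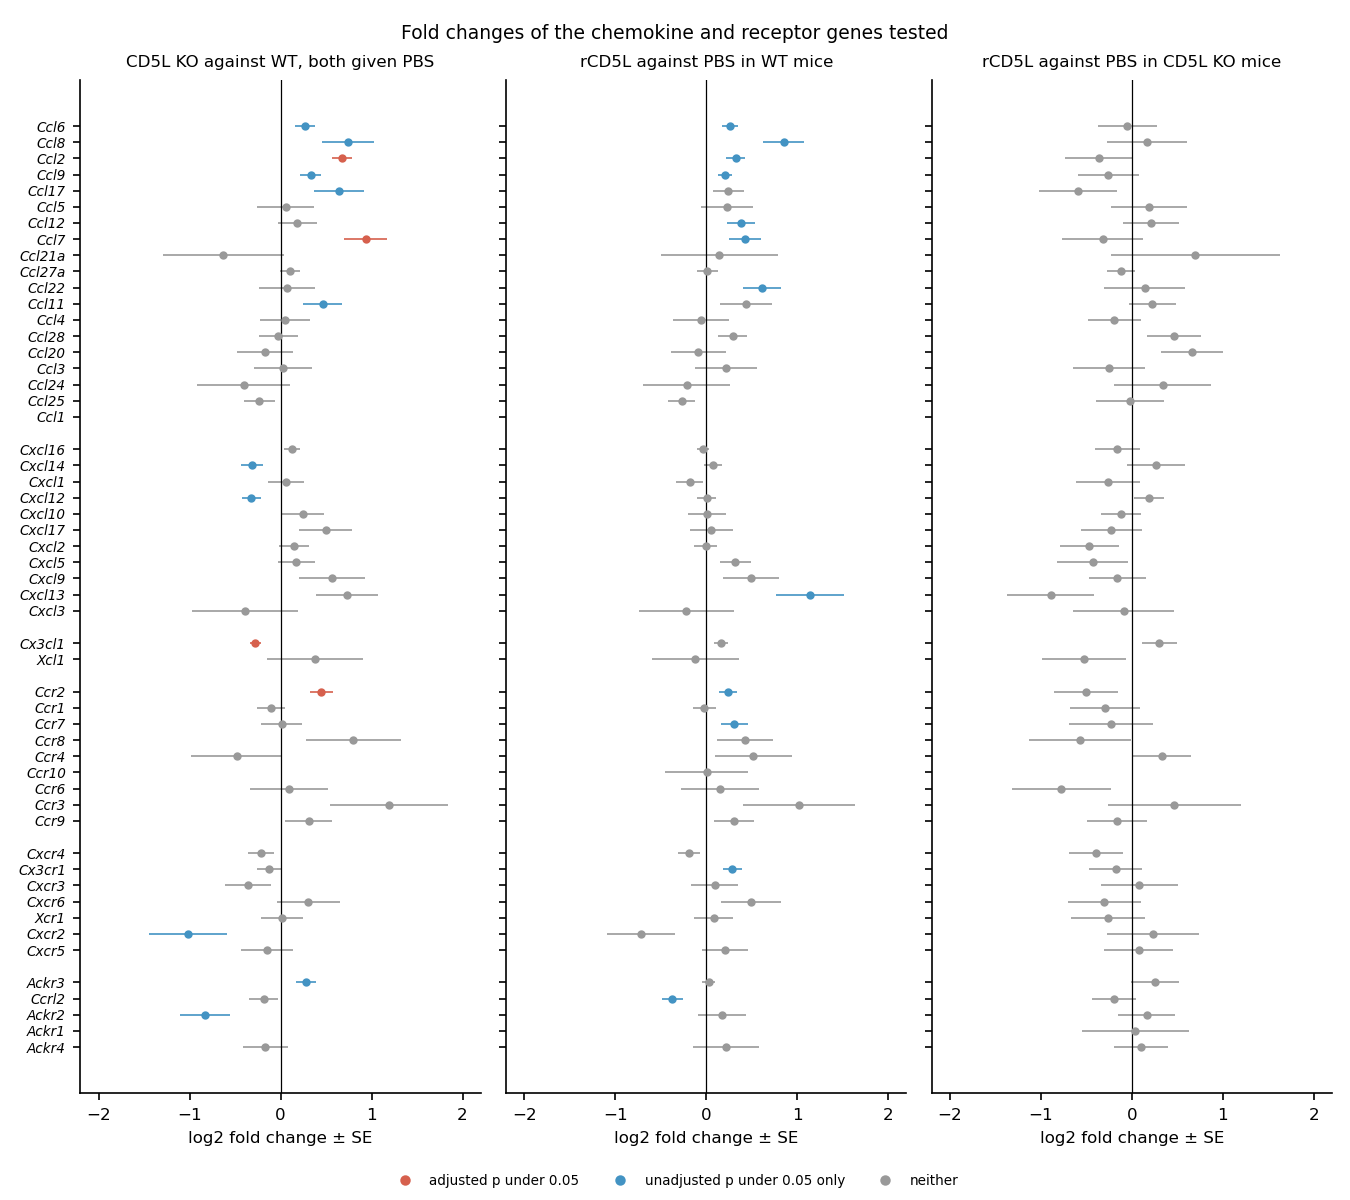
Log2 fold change (points) and standard error (bars) from edgeR for chemokine and receptor genes tested, ordered as in the plot of levels, in 3 comparisons. Red marks an adjusted and blue only an unadjusted p-value under 0.05. Red points are seen only for the genotypes given PBS (Ccl2, Ccl7, Ccr2 and Cx3cl1), and no gene shown passed either threshold for rCD5L in CD5L KO mice.

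The genotypes were also compared with rCD5L in both. None of 52 members had an adjusted p-value under 0.05 (edgeR, smallest 0.259, and 0 with DESeq2), as in 0.0% of 17360 genes. An unadjusted p-value under 0.05 was found for 5 (9.62%, against 17.8% of all genes), and for none did the groups separate, against 7.52% of all genes. These were Cxcl13 (log2 fold change -1.29), Ackr2 (-0.84), Ccr4, a receptor of regulatory and helper T cells (-0.67), and Cx3cr1 (-0.59), all lower in CD5L KO kidneys, and Ackr3 (0.51).

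Ackr2 (ENSMUSG00000044534, chromosome 9, 121898355 to 121911074) had 1.34, 1.72, 0.962, 0.996 and 1.93 CPM in CD5L KO and 2.72, 3.87, 2.19, 2.08 and 1.55 CPM in WT kidneys given rCD5L, and 3 CD5L KO kidneys lay below all WT kidneys (adjusted p = 0.259, edgeR). Cx3cr1 had 66.2, 66.2, 52.5, 22.0 and 41.1 CPM against 78.1, 81.0, 62.6, 86.7 and 58.8 CPM (adjusted p = 0.270). Ackr3 had 189 CPM in CD5L KO + rCD5L replicate 4 and 69.4 to 102 CPM in the other kidneys of that group, against 68.3 to 81.0 CPM in WT kidneys given rCD5L. Without this kidney its log2 fold change was 0.22 instead of 0.51. The median over members was -0.13, and it was -0.02 without this kidney and -0.24 without CD5L KO + rCD5L replicate 5. Leaving out 1 kidney gave 2 to 7 members with an unadjusted p-value under 0.05, the lowest without WT + rCD5L replicate 1, 2 or 4 (2058 to 2450 of all genes). Without CD5L KO + rCD5L replicate 4 it was found for 7 of 53 members, against 16.2% of all genes. Cxcl17 (0.41), Cxcl12 (-0.28), Ccl7 (0.45) and Cxcl16 (0.19) joined Cxcl13 (-1.09), Ackr2 (-0.75) and Cx3cr1 (-0.40), while Ackr3 (unadjusted p = 0.0786, adjusted p = 0.359, edgeR) and Ccr4 (-0.56) no longer had one.

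Ccl2, Ccl7 and Ccr2, which were higher in CD5L KO kidneys given PBS, had log2 fold changes between the genotypes of -0.01, 0.19 and -0.30 when both received rCD5L, and Cx3cl1 had -0.14. None of these passed. Without CD5L KO + rCD5L replicate 4, Ccl7 had 0.45 (unadjusted p = 0.0291, adjusted p = 0.265, edgeR) and Ccl2 had 0.23 (adjusted p = 0.422), with -0.09 for Ccr2 and -0.06 for Cx3cl1. Without CD5L KO + rCD5L replicate 3, Cx3cl1 had -0.32 (unadjusted p = 0.0218, edgeR adjusted p = 0.228) and Ccr2 -0.17. With any 1 kidney left out, Ccl2 ranged from -0.15 to 0.23, Ccl7 from -0.07 to 0.45 and Ccr2 from -0.48 to -0.09.

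Whether rCD5L acted differently in the genotypes was tested as an interaction over all 4 groups. Of 54 members, 0 had an adjusted p-value under 0.05 (edgeR, smallest 0.731, and 0 with DESeq2), as in 0.0% of 18454 genes. Cxcl13 alone, 1 gene or 1.85% of members against 6.25% of all genes, had an unadjusted p-value under 0.05. Its effect of rCD5L was lower by 2.02 on the log2 scale in CD5L KO than in WT mice (SE 0.623, unadjusted p = 0.00432, adjusted p = 0.731), with means of 0.637, 1.08, 1.41 and 0.562 CPM in WT + PBS, CD5L KO + PBS, WT + rCD5L and CD5L KO + rCD5L. Next came Ccr2 (-0.73), Ccl17 (-0.82), Ccl2 (-0.67) and Cxcl5 (-0.73), with unadjusted p-values of 0.0630 to 0.109. Without CD5L KO + rCD5L replicate 4, Ccr2 had -0.53, Ccl17 -0.59 and Cxcl5 -0.51. In that fit, 2 of 54 members had an unadjusted p-value under 0.05, against 4.97% of all genes. These were Cxcl13 (-1.83, unadjusted p = 0.00569, edgeR) and Ccl2 (-0.44, unadjusted p = 0.0316), both with an adjusted p of 0.853. Leaving out any 1 of the 19 kidneys gave 1 to 4 such members, the 4 without CD5L KO + PBS replicate 3 (1206 of all genes) or CD5L KO + rCD5L replicate 1 (1910).

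Genes that act with the family were described by lists. Of 48 genes of chemokine receptor signalling (G proteins, phospholipases, kinases, arrestins and Rac activators), 7 were lower and 0 higher in CD5L KO than in WT kidneys given PBS. They were Stat3 (log2 fold change -0.36, adjusted p = 0.00866, edgeR), Lyn (-0.30), Plcb3 (-0.29), Jak3 (-0.29), Foxo3 (-0.27), Ptk2 (-0.23) and Arrb1 (-0.23). The share, 7 of 48, stood beside 10.5% of all genes called, and the list's median was -0.12. With rCD5L in WT mice, 37 of 48 were higher in the mean and 0 passed, the smallest adjusted p-value being that of Prex1, a Rac activator (0.37, adjusted p = 0.104).

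Of 22 tested inducers of chemokines, that is cytokines, their receptors and transcription factors, Spp1 (osteopontin, 22140 against 15420 CPM, log2 fold change 0.51, adjusted p = 0.0143, edgeR) was higher and Tnfrsf1b, a TNF receptor, lower (-0.33, adjusted p = 0.0296) in CD5L KO kidneys given PBS. Tnf (0.00), Il1b (0.21), Il6 (-0.60) and the NF-kB subunits Rela (-0.03) and Nfkb1 (-0.13) did not pass. The 8 chemokine-related genes whose symbols fall outside the rule included 1 call, Gpr182, a scavenging receptor of endothelium (-0.38, adjusted p = 0.0234). Ppbp (-0.87), Pf4 (-0.33), Rarres2, which encodes chemerin (0.20), and Mif (0.04) did not pass. With rCD5L in CD5L KO mice, 0 genes of these 3 lists passed (edgeR).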

How the data were processed

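Bulk RNA-seq of 19 obstructed kidneys was analysed from the deposited count table. Per the labels and methods, the authors used Trimmomatic for trimming, HISAT2 for alignment (GRCm38) and featureCounts for the gene counts (versions, strand and multimapping settings are not given in the sources used here). The authors deposited raw counts and FPKM for 54532 genes. The library size behind the deposited FPKM was 0.882 to 1.29 times the total count, so FPKM served only to compare levels between genes and in alternatives. Gene length was also deposited and entered 1 alternative. Samples were grouped by their labels, which name biological replicates.

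Groups were compared on the counts with edgeR's quasi-likelihood test (4.0.16, R 4.3.3), with TMM factors and filterByExpr (minimum count 10), in fits of the 2 groups concerned, and for the interaction over all 4 groups. Adjusted p-values are Benjamini-Hochberg over all genes tested. Alternatives were RLE factors, DESeq2 (1.42.0), a filter of at least 10 counts in every sample or none, 1 fit of all 19 samples, a replicate block, a gene length offset, limma (3.58.1) on log2(FPKM + 1) or log2(FPKM + 0.1), and leaving out each kidney. Named genes were those called in any comparison, the 5 with the smallest p-values in each, the 3 most abundant of each class, and known ligand and receptor pairs. The members and lists were chosen with earlier results of these data known. Precision is limited by 4 or 5 kidneys a group. A count of 0 allows up to 3 counts, for counting error only. Values of 1 member are not reported here, and it is left out of the figures but kept in the counts over members.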

Additional observations from a re-analysis of the deposited data

Results flagged for a closer look

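Of 160 sets of values (40 genes or sums in 4 groups), 12 held a kidney far from the others of its group by Dixon's test, where a chance of 1 in 20 gives 8. In WT + PBS replicate 1, Cxcl16 (269.0 CPM), Cxcl9 (30.8), Cxcr3 (12.2), Cxcr6 (11.4) and Xcl1 (2.21) were far above the other kidneys of the group. In CD5L KO + rCD5L replicate 4, Ackr3 (188.9 CPM) was far above, and Cxcl16 (104.2 CPM) and the summed level of all members (1195 CPM) far below, the other kidneys of the group.

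In the same group, Cx3cl1 was high in replicate 3 (520.3 CPM) and Cxcl1 in replicate 5 (99.9 CPM). Among WT + rCD5L kidneys, Ccl3 was low in replicate 3 (0.602 CPM, that is, few counts) and Ccl4 high in replicate 1 (2.25 CPM).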

How the results depend on the processing

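Refits were counted for 25 fold changes only, those of the genes with the smallest p-values in each comparison. Of the 525 refits of these, 501 kept their direction and their side of the threshold, and 0 reversed. Another 18 kept the direction but no longer passed, and 6 passed where they had not. Fold changes of other named genes were outside this count, and some changed sign when 1 kidney was left out. Between the genotypes given rCD5L, Ccl2 then ranged from -0.15 to 0.23 and Ccl7 from -0.07 to 0.45, while Ccr2 and Cx3cl1 kept their sign. For the loss of CD5L with PBS, 4 members were called, but 0 with all 19 samples in 1 fit (12 genes in all were then called), 2 with FPKM + 1 and no filter (967 of 31595 genes in all), and 10 of 51 with a replicate block (2132 of 17579 genes in all). Leaving out 1 kidney gave 2 to 9 calls. They were 2 without CD5L KO + PBS replicate 1 (1038 of 17799 genes in all) or WT + PBS replicate 4 (1015 of 17459), 9 without CD5L KO + PBS replicate 3 (1316 of 17882) and 7 without WT + PBS replicate 1 (1731 of 17407). For rCD5L against PBS in WT mice, DESeq2 called 1 member (508 of 31830 genes in all) and the fit with no filter called 1 (137 of 31830), and leaving out 1 kidney gave 0 to 1. In the other comparisons 0 members were called under each alternative that was run, although DESeq2 called 64 and the fit of all 19 samples 1291 genes in all between the genotypes given rCD5L. The cause was not tested.

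The replicate numbers were not taken as pairs. Deviations of kidneys with the same number correlated between -0.208 and 0.294, and the labels name no shared litter or day. With 4 or 5 kidneys a group, a p-value above the threshold does not show that levels were alike.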
